A study of Mus musculus with 7 samples.

Results

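The corticotropin-releasing hormone (CRH) and urocortin system was described in bulk RNA-seq of the mouse medial amygdala, a limbic nucleus that relays chemosensory and social signals. Its 6 members were taken by gene name from the 55414 genes of the deposited table: the ligand genes Crh, Ucn and Ucn3, the receptor genes Crhr1 and Crhr2, and Crhbp, which encodes a binding protein. Libraries came from 3 female and 4 male Trap-Ai9 mice of 2 months, also written TRAP2-Ai9, a strain whose Fos-active cells take on a lasting red reporter when tamoxifen is given. All 7 mice carried these alleles and received oral tamoxifen, the females at 6 weeks and the males on postnatal day 24 per the sample labels, while the series' design text gives day 24 alone. Sex and age at tamoxifen therefore cannot be told apart. The RNA came from the whole dissected piece and not from marked cells. The marked area, which the submitters call DIMPLE without spelling the name out, took up 20 to 25% of the piece in females and 18 to 40% in males.

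CRH starts the hormonal stress response from the hypothalamus and acts as a neuropeptide in the amygdala. CRH and the urocortins bind a pair of class B receptors that couple mainly to the stimulatory G protein and raise cyclic AMP. CRH prefers CRHR1, urocortin binds both receptors, and urocortin 3 is selective for CRHR2. CRHBP is a secreted protein that holds CRH and urocortin away from the receptors. In rodents Ucn3 neurons are known from the medial amygdala, the bed nucleus of the stria terminalis and the hypothalamus, and Ucn neurons mainly from the Edinger-Westphal nucleus of the midbrain.

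Total counts ranged from 29049604 in male 1 to 46494588 in male 3. All 10 medial amygdala markers passed the low-count filter, among them the LIM homeobox gene Lhx6 at 56.9 to 203 CPM (a gene's count as a part of each TMM-scaled library total, times 1000000) and the estrogen receptor gene Esr1 at 42.2 to 110 CPM. The lowest was Lhx5 at 0.326 to 1.23 CPM. Estimates were higher in males for 1 of the 10, Lhx9, and lower for 9. Their median log2 fold change, male minus female, was -0.52, against 0.01 over all genes tested, and 0 passed the threshold (edgeR). Pieces differed in genes listed as markers of tissue outside the nucleus. In male 3 the summed level of 6 choroid plexus genes was 14700 CPM, against 27.5 to 43.1 CPM in the other males and 40.0 to 300 CPM in females. In female 3 the sum of 12 hypothalamic genes was 402 CPM, against 23.8 to 47.8 CPM in the other libraries. The vasopressin gene Avp made up 265 CPM of it and the oxytocin gene Oxt 44.7 CPM, so this sum rests largely on Avp. The sum of 8 cortical and basolateral projection neuron genes was 67.3 to 115 CPM in females and 173 to 919 CPM in males. None of these listed genes was at 0 in every library.

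Promoters of 5 of the 6 members, all but Crh, were matched in the RefSeq table (GRCm38.p6). The promoters of Ucn and Ucn3 are shown because these ligands stood at opposite ends of the ligand levels, and those of Crhr1 and Crhr2 because the receptors varied differently between libraries. Each runs 5′ to 3′ on the gene's strand, from 250 bases before the annotated start to 50 bases from it onwards. Capitals mark the cyclic AMP response element (CRE) TGACGTCA, its core TGACG on either strand, or TATAA on the gene's strand. The core lies inside the full element.
Ucn, chr5:31138846-31139145, minus strand: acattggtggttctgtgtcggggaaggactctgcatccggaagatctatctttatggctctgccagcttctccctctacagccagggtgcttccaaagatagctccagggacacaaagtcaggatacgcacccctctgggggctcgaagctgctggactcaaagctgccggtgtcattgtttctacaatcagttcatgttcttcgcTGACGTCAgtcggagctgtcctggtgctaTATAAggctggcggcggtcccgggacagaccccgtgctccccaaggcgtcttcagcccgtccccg
Ucn3, chr13:3945300-3945599, minus strand: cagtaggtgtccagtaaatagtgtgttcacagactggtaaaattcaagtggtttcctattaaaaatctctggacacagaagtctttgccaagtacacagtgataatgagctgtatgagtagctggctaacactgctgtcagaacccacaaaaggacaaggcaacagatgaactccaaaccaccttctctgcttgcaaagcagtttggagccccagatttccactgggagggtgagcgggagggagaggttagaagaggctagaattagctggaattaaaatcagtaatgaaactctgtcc
Crhr1, chr11:104132531-104132830, plus strand: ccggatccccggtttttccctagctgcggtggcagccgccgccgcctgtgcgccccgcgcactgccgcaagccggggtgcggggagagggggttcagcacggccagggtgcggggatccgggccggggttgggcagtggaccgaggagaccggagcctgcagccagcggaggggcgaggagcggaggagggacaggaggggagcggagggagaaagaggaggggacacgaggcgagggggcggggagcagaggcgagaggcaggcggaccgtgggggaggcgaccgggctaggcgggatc
Crhr2, chr6:55132967-55133266, minus strand: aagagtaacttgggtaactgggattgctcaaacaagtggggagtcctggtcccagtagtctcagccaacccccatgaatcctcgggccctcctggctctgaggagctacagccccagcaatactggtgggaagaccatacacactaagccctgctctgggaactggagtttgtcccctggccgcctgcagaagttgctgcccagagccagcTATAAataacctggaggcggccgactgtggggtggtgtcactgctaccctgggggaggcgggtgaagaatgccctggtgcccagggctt
The Ucn promoter alone among the 5 members' promoters held the full CRE, which begins 44 bases before the start and is found in 1.79% of 32851 promoters of this length. The core TGACG, present in 20.8% of them, was also found in the Crhbp promoter. TATAA, present in 17.5%, was found in the Ucn, Crhr2 and Crhbp promoters. The Ucn3 and Crhr1 windows held none of these letters, and their GC contents were 44.7% and 75.0%, against a median of 52.7%. These matches are letters in a window and say nothing of binding.

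Levels between genes were compared as CPM per kb of exon. Crhbp was highest on average at 21.8, followed by Ucn3 at 17.0, Crh at 9.27, Crhr1 at 4.55, Crhr2 at 2.34 and Ucn at 0.0227 CPM per kb (mean of 7 libraries). Crhbp led in 5 libraries and Ucn3 in female 1 and male 2, so these neighbours in the order overlapped. The Ucn3 range of 3.88 to 37.6 CPM per kb also overlapped that of Crh, 3.64 to 12.3 CPM per kb. Crh stood above Crhr1, Crhr1 above Crhr2 and Crhr2 above Ucn in all 7 libraries, by a margin of only 1.01-fold for Crhr1 over Crhr2 in male 3.

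**Figure D1:**
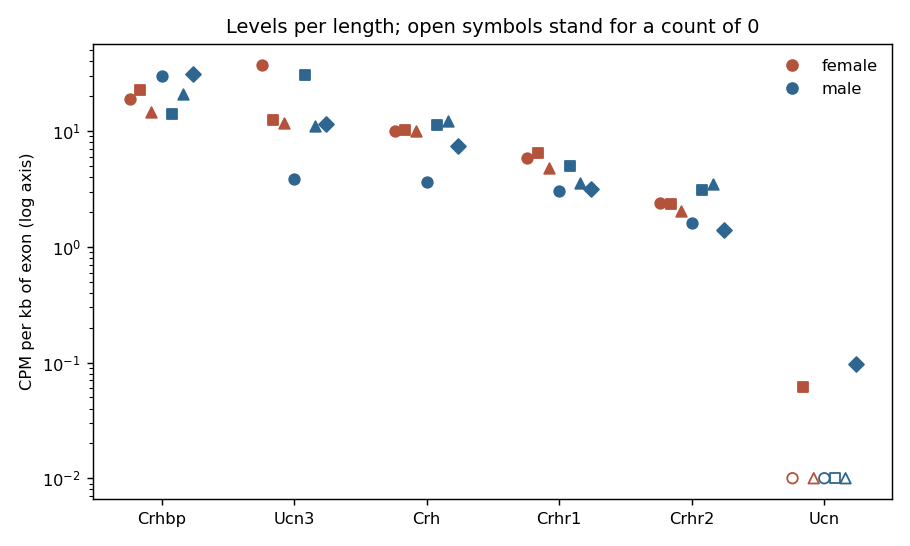
CPM per kb of exon (log axis) of the 6 genes in each library, with females in red and males in blue, marker shapes as replicate numbers 1 to 4, and open symbols at the bottom for a count of 0. Ucn lies far below the other 5 genes, and Ucn3 spreads from 3.88 to 37.6.

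Ucn, the urocortin gene (ENSMUSG00000038676, chromosome 5, 31295407 to 31296173, GRCm39), was close to undetected. Its count was 0 in 5 libraries, 1 in female 2 and 2 in male 4. These 3 reads of 277238582 correspond to 0.0108 CPM with an exact 95% Poisson interval of 0.00223 to 0.0316, which covers counting error only. A count of 0 allows up to 0.0645 CPM in male 3 and up to 0.103 CPM in male 1. Ucn did not pass the low-count filter and was not tested. No gene of the table overlaps Ucn or any other member.

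Ucn3, the urocortin 3 gene (ENSMUSG00000044988, chromosome 13, 3990688 to 3995349), was the most variable member. It stood at 55.5, 18.5 and 17.4 CPM in females 1 to 3 and at 5.74, 44.9, 16.5 and 17.1 CPM in males 1 to 4. Female 1 and male 2 were high, male 1 was low, and the other 4 libraries lay within 16.5 to 18.5 CPM in both groups. The highest library was 9.66 times the lowest. The SD of its log2 CPM over the libraries was 1.07, larger than in 99.0% of the 5150 tested genes within 2-fold of its mean level. In bulk tissue, fewer cells of a type and less RNA per cell cannot be told apart. The groups overlapped, at 30.5 ± 21.7 CPM (SD, n = 3) in females and 21.1 ± 16.7 CPM (SD, n = 4) in males. The log2 fold change, male minus female, was -0.53 ± 0.62 (SE) with a 95% interval of -1.93 to 0.86 (edgeR quasi-likelihood test, Benjamini-Hochberg adjusted p = 1). Without female 1 the estimate was 0.23.

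Crh (ENSMUSG00000049796, chromosome 3, 19747565 to 19749560) lay within 13.2 to 13.5 CPM in the females and spread widely in the males. It stood at 13.3, 13.5 and 13.2 CPM in females 1 to 3 and at 4.81, 14.8, 16.3 and 9.74 CPM in males 1 to 4. Males 2 and 3 lay above every female and males 1 and 4 below. The group levels were 13.3 ± 0.145 CPM (SD, n = 3) and 11.4 ± 5.22 CPM (SD, n = 4). The female SD rests on 3 libraries with counts of 435 to 621. Counting error alone spreads such counts more widely than this SD, so the closeness of the females is not read as a trait. Female pieces spanned 20 to 25% DIMPLE and male pieces 18 to 40%. The log2 fold change was -0.22 ± 0.35 (SE), with a 95% interval of -1.01 to 0.57 (edgeR adjusted p = 1), and 0.03 without male 1. Crh is also made in the paraventricular hypothalamus. Female 3, with the hypothalamic sum of 402 CPM (265 CPM of it Avp), stood at 13.2 CPM of Crh. The part of hypothalamic RNA in the Crh levels was not tested.

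Crhbp, the binding protein gene (ENSMUSG00000021680, chromosome 13, 95567879 to 95581432), did not share the order of Crh across the libraries. It stood at 34.2, 41.1 and 26.3 CPM in females 1 to 3 and at 53.5, 25.5, 37.6 and 56.4 CPM in males 1 to 4. Males 1 and 4, the lowest males in Crh, were the highest libraries in Crhbp, while male 2 was the lowest of all. The groups overlapped, at 33.9 ± 7.42 and 43.2 ± 14.5 CPM (SD, n = 3 and n = 4). The log2 fold change was 0.35 ± 0.28 (SE), with a 95% interval of -0.28 to 0.98 (edgeR adjusted p = 1). Without female 3 or male 4 the estimate was 0.20, and without male 2 it was 0.53.

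Crhr1, the receptor preferred by CRH (ENSMUSG00000018634, chromosome 11, 104023681 to 104066349), had the lowest p of the members. It stood at 14.4, 15.8 and 11.8 CPM in females 1 to 3 and at 7.47, 12.4, 8.71 and 7.82 CPM in males 1 to 4. Males 1, 3 and 4 lay below every female, and male 2 lay above female 3. The levels were 14.0 ± 1.99 CPM (SD, n = 3) in females and 9.11 ± 2.28 CPM (SD, n = 4) in males. The log2 fold change was -0.62 ± 0.23 (SE), with a 95% interval of -1.14 to -0.10, at an unadjusted p of 0.0244 and an adjusted p of 0.899 (edgeR over 20420 genes). In the authors' deposited table the estimate, female over male, was 0.62 with an adjusted p of 0.79. Without male 2 the log2 fold change was -0.81 with an adjusted p of 0.321 (edgeR), and with percent DIMPLE in the model it was -0.40.

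Crhr2, the receptor of urocortin 3 (ENSMUSG00000003476, chromosome 6, 55067034 to 55110001), was even in females and split in males. It stood at 12.2, 11.9 and 10.5 CPM in females 1 to 3 and at 8.22, 15.9, 17.9 and 7.11 CPM in males 1 to 4. As for Crh, males 2 and 3 lay above every female and males 1 and 4 below. The group levels were 11.5 ± 0.933 and 12.3 ± 5.42 CPM (SD, n = 3 and n = 4). The log2 fold change was 0.09 ± 0.33 (SE), with a 95% interval of -0.64 to 0.83 (edgeR adjusted p = 1), and -0.16 without male 3 and -0.05 without male 2. In rat the choroid plexus is a known site of Crhr2 RNA. The highest Crhr2 level was in male 3, the library with the choroid plexus sum of 14700 CPM, and the next highest in male 2, where that sum was 43.1 CPM. The part of choroid plexus RNA in the male 3 level was not tested.

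**Figure D2:**
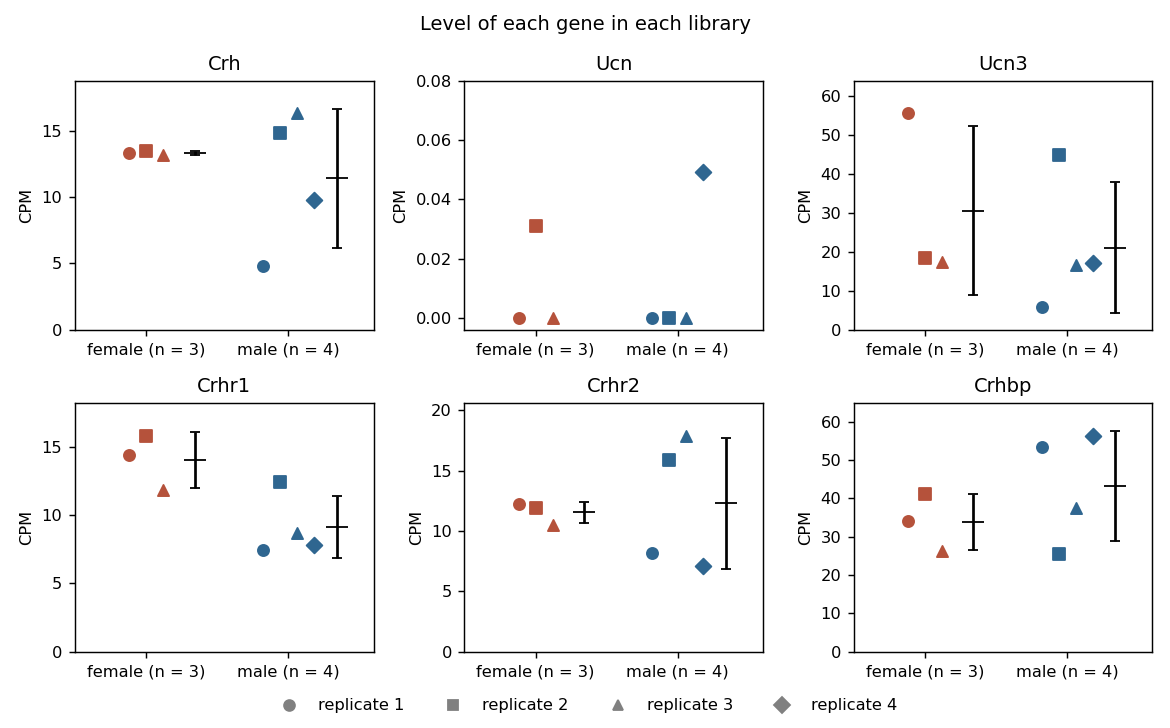
CPM of each gene in each library by group (females red, males blue, marker shape as replicate number), with the mean and SD of the group as bars except for Ucn. In Crh and Crhr2 the females lie close together and the males spread to both sides, and in Crhr1 males 1, 3 and 4 lie below all females.

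Of the 5 tested members, 0 differed between males and females at an adjusted p under 0.05 by edgeR, and 0 by DESeq2 or limma-voom. Over all 20420 genes edgeR called 5, which is 0.0245%, and DESeq2 called 0.644% of the genes for which it gave an adjusted p. At an unadjusted p under 0.05 edgeR gave 1 of the 5 members, Crhr1, against 4.71% of all genes. The groups overlapped in all 5, whereas they did not overlap for 5.32% of all genes.

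Ratios within a library were formed per length, after the levels were seen, and were not tested. Crhr1 over Crhr2 was 2.45, 2.76 and 2.34 in females 1 to 3 and 1.89, 1.62, 1.01 and 2.29 in males 1 to 4. Every female was above every male, by a narrow margin between female 3 and male 4, and the lowest ratio was in male 3. For single genes the groups did not overlap in 5.32% of all genes tested, and no such share was formed for ratios. Crhbp over Crh was 1.89, 2.23 and 1.46 in females 1 to 3 and 8.16, 1.26, 1.69 and 4.25 in males 1 to 4. Males 1 and 4 were above every other library, and males 2 and 3 lay in or near the female range. The groups also overlapped in Ucn3 over Crh, at 1.18 to 3.73 in females and 0.904 to 2.71 in males. Crhbp over Ucn3 overlapped as well, at 0.506 to 1.82 in females and 0.466 to 7.65 in males.

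**Figure D3:**
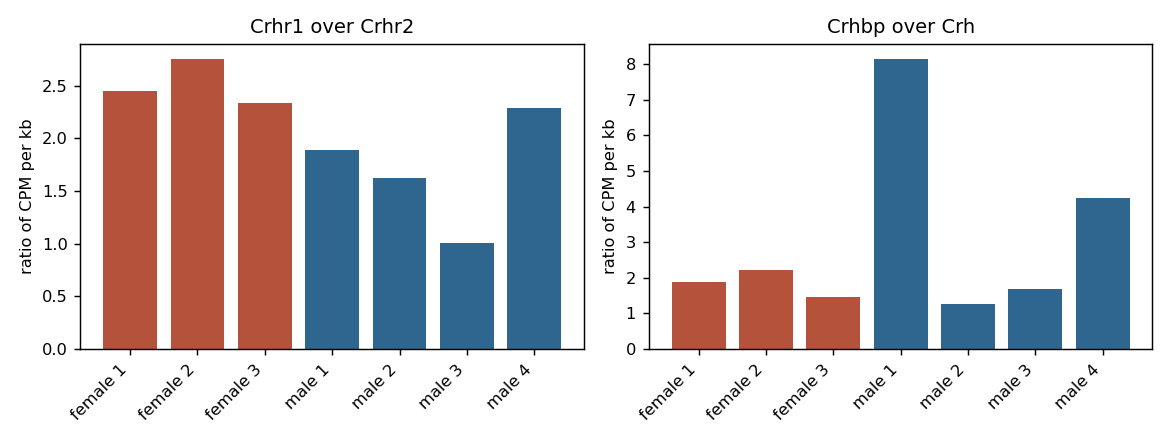
Ratio of CPM per kb of exon in each library (females red, males blue) for Crhr1 over Crhr2 and Crhbp over Crh. The receptor ratio is lowest in male 3 at 1.01, and the binding protein over Crh is highest in male 1 at 8.16.

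The percent DIMPLE of the piece was used to describe the members across pieces, as a slope in log2 units per 10 percentage points with sex in the model. Of the 5 tested members, 4 had estimates below 0 and 1, Crhbp, above 0, and 0 passed by edgeR, DESeq2 or limma-voom. Over all 20420 genes edgeR also called 0, which is 0%, and at an unadjusted p under 0.05 it gave 4.54% of genes and 1 member, Ucn3. The Ucn3 slope was -0.97 ± 0.42 (SE, n = 7), with an unadjusted p of 0.0492 and an adjusted p of 0.897 (edgeR). Ucn3 was highest among males in the piece with 18% DIMPLE (44.9 CPM) and lowest in the piece with 40% (5.74 CPM), and the males with 29 and 32% lay between them. In females the order went the other way, with the highest level (55.5 CPM) in the piece with 25% and lower levels in both pieces with 20%. The male slope minus the female slope was -4.55 ± 0.63 (SE) for Ucn3, with an unadjusted p of 0.000105 and an adjusted p of 1 (edgeR interaction term, 0 genes called, 0%), and the female slope rests on female 1.

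The slope was -0.53 ± 0.28 (SE) for Crh, -0.30 ± 0.16 for Crhr1 and -0.29 ± 0.26 for Crhr2. For Crhbp it was 0.42 ± 0.21 (SE). Each had an edgeR adjusted p of 0.897. Each of the 5 slopes moved furthest when male 1 (40%) or male 2 (18%) was left out. Without male 1 the slopes were -0.04 for Crh, -0.06 for Crhr2 and -0.51 for Ucn3, and without male 2 the slopes were -0.96 for Crh, -0.08 for Crhr1, -0.30 for Ucn3 and 0.03 for Crhbp. The 10 medial amygdala markers had slopes in both directions, from -0.63 ± 0.18 (SE) for Lhx6 to 1.02 ± 0.39 for Lhx9. Both had an adjusted p of 0.897 (edgeR). The median slope of the 10 was -0.11, against 0.01 over all genes tested. In male 1 the sum of the 10 medial amygdala markers was 1300 CPM, of which the tachykinin gene Tac1 made up 999 CPM. The other 9 markers summed to 303 CPM there, within the 273 to 370 CPM of the other males, and to 401 to 452 CPM in females. In male 1 the sum of the projection neuron genes was 503 CPM. The part of these tissues in the low Ucn3 and Crh of male 1 was not tested.

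**Figure D4:**
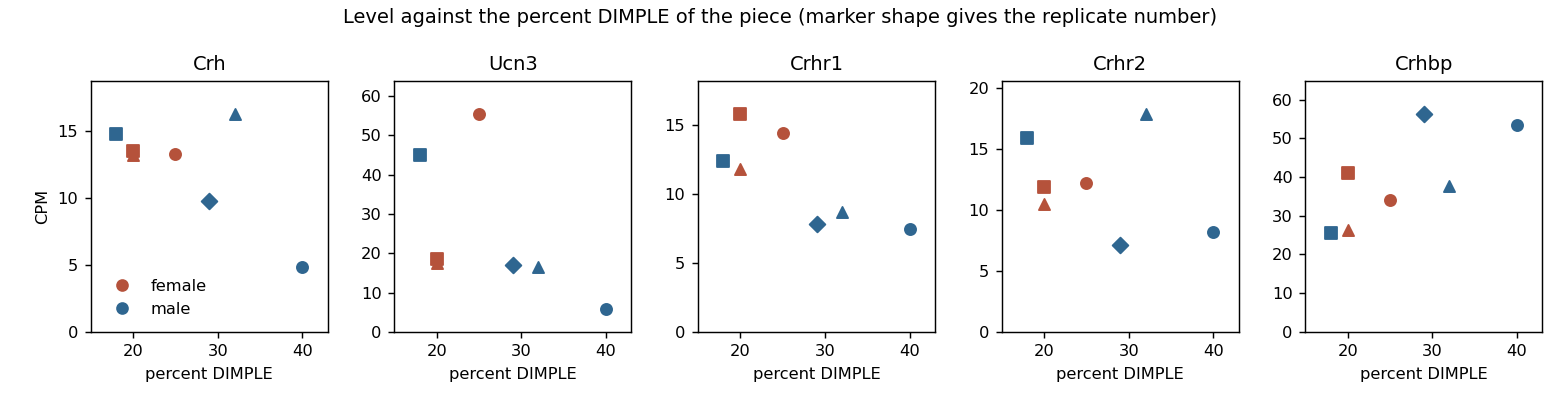
CPM of the 5 tested genes against the percent DIMPLE of the piece (females red, males blue, marker shape as replicate number). Ucn3 and Crh are lowest in the male piece with 40% DIMPLE, and Crhbp is highest in the male pieces with 29 and 40%.

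**Figure D5:**
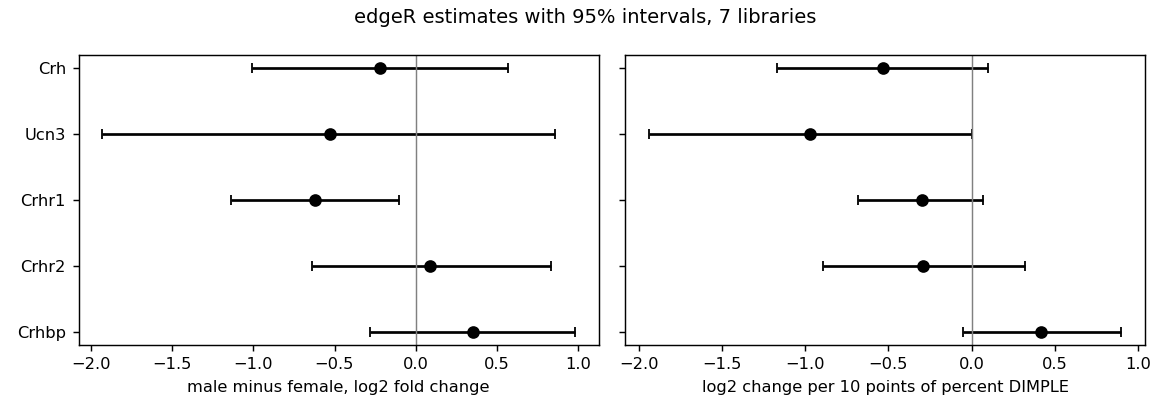
edgeR estimates with 95% intervals from 7 libraries for male minus female (left, log2 fold change) and for percent DIMPLE (right, log2 change per 10 points). The Crhr1 interval for male minus female runs from -1.14 to -0.10, and the other 4 intervals in that panel include 0.

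Genes with the most similar pattern were found by the mean absolute gap between log2 CPM profiles, each centred on its mean over the 7 libraries, among 12028 genes of at least 5 CPM. For Crhr1 they were Rph3a and Hrh1, the histamine H1 receptor gene, each with a gap of 0.06 log2 units against a median gap of 0.39 over the candidates. For Crh they were Mreg (0.15) and Inpp5a (0.16), with a median gap of 0.44. For Crhr2 they were Fgd5 (0.11) and Slc7a10 (0.14), with a median of 0.40, and for Crhbp Lcorl (0.10) and Slc16a7 (0.11), with a median of 0.42. For Ucn3 they were the T-type calcium channel gene Cacna1i (0.44) and Xkr6 (0.46), with a median gap of 0.79. Among the members themselves Crh and Crhr2 were nearest at 0.30 and Ucn3 and Crhbp farthest at 1.04.

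The pathway around the members was described by a list of 36 genes, from the ligand gene Ucn2 to G proteins, adenylyl cyclases, protein kinase A, CREB factors and receptor desensitisation. Of these, 35 passed the low-count filter, all but Ucn2, and 0 differed between males and females over all genes (edgeR), with 3 of 35 at an unadjusted p under 0.05, against 4.71% of all genes. Estimates were higher in males for 11 and lower for 24, with a median log2 fold change of -0.08, against 0.01 over all genes tested. The 3 of lowest p were Adcy1, an adenylyl cyclase stimulated by calcium, Ramp2, a receptor activity modifying protein, and Adcy7, another cyclase. Male Adcy1 averaged 90.3 ± 41.2 CPM (SD, n = 4), against a female 40.3 ± 5.09 CPM (SD, n = 3), with a log2 fold change of 1.17 ± 0.31 (SE; edgeR adjusted p = 0.63). In the same order, Ramp2 averaged 32.0 ± 8.16 and 20.6 ± 4.02 CPM and Adcy7 at 5.38 ± 1.47 and 9.37 ± 3.24 CPM, with edgeR adjusted p-values of 0.888 and 0.915. The summed projection neuron genes were also higher in males, at 173 to 919 CPM against 67.3 to 115 CPM in females. For single genes the groups did not overlap in 5.32% of all genes tested, and no such share was formed for sums. The part of projection neurons in the Adcy1 level was not tested. For the DIMPLE slope 0 of the 35 passed (edgeR), 3 had an unadjusted p under 0.05, against 4.54% of all genes, and the median slope was -0.16, against 0.01 over all genes.

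Of 6 genes that cut and finish peptide precursors 0 passed for sex or slope, with 3 and 0 at an unadjusted p under 0.05 (edgeR), against 4.71 and 4.54% of all genes. Their median log2 fold change was -0.28, against 0.01 over all genes. The amidating enzyme gene Pam, needed for the amide end of CRH, averaged 110 ± 19.5 CPM (SD, n = 3) in females, against 71.5 ± 15.7 CPM (SD, n = 4) in males, with a log2 fold change of -0.62 ± 0.21 (SE; edgeR adjusted p = 0.835). The convertase gene Pcsk1 averaged 41.1 ± 10.8 and 28.1 ± 4.81 CPM in the same order, and Pcsk1n, which encodes its inhibitor, 860 ± 57.1 and 616 ± 145 CPM. Among 7 tested genes of the 8 in the list of stress hormone signalling and Crh control, 0 passed for either comparison, with 2 and 1 at an unadjusted p under 0.05 (edgeR), against 4.71 and 4.54% of all genes. Their median log2 fold change was 0.18, against 0.01. Hsd11b1, which regenerates active glucocorticoid, averaged 23.6 ± 5.92 CPM in females, against 45.4 ± 18.4 CPM in males (edgeR adjusted p = 0.82). The mineralocorticoid receptor gene Nr3c2 averaged 20.2 ± 3.06 and 33.5 ± 9.73 CPM (edgeR adjusted p = 0.835), and Fkbp5, a glucocorticoid-induced chaperone gene, 37.0 ± 3.52 and 45.9 ± 7.02 CPM (edgeR adjusted p = 1).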

How the data were processed

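Bulk RNA-seq of 7 dissected medial amygdala pieces, each from 1 mouse, was analysed. The submitters' processing notes name the build GRCm39 and the tools HTSeq 2.0.1, TopHat2 2.2.1, DESeq2 1.26.0 and cutadapt. Their roles, the strand setting and the annotation release are not given in the sources used here. The authors deposited raw counts per gene and library, and a normalized signal, the counts divided by size factors, which was not analysed here. Log2 fold changes, a Wald statistic score and p-values of female over male are also deposited, per the file headers. Columns were matched to libraries by the column letters in the labels. Of 55414 genes, 6250 hold no count.

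Counts were filtered with filterByExpr (minimum count 10, total 15), scaled by TMM and tested with a robust quasi-likelihood fit in edgeR 4.0.16 (R 4.3.3), with Benjamini-Hochberg adjustment over 20420 genes and a threshold of 0.05. Positive values mean higher in males. Intervals of 95% come from the fit. Log2 CPM used a prior count of 2. Exon lengths are unions of GENCODE M21 (GRCm38) exons, matched by gene ID. The fit was tested on simulated data, where it missed most of the smaller changes between males and females. The 0 calls among the members therefore do not show that the groups are alike. Total counts leave counting error small for all members but Ucn, and for those the precision is that of 3 and 4 animals.

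The members and gene lists were chosen with earlier results of these data known. The rule named the members, up to 3 genes of lowest p per list and the 2 nearest genes by pattern. Of the tissue marker lists, sums and the genes a result turns on are given. Alternatives were other scalings, no filter, DESeq2 1.42.0, limma-voom 3.58.1, a percent DIMPLE covariate, a replicate block, no sex term and leaving out each library. Males by column prefix and the interaction of sex and percent DIMPLE were added after seeing the data.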

Additional observations from a re-analysis of the deposited data

Results flagged for a closer look

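In groups of 4 normally distributed values, chance marks about 1 in 20 as holding a sample far from the others. The rule was run on the male values of each member, each ratio and each summed list, so some marks are expected by chance. Among the males the summed choroid plexus genes were far higher in male 3 (14700 CPM) than in the next male, as was the sum of striatal projection neuron genes (283 CPM, also male 3). The Ucn level of 0.0492 CPM in male 4 stood apart from 3 males at 0, and it rests on 2 reads. With 3 males at 0 the rule marks any level above 0 in the other male.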

How the results depend on the processing

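No member passed the threshold under any of the 16 alternatives for male minus female (lowest adjusted p 0.321, Crhr1, edgeR) or the 13 for the slope (lowest 0.436). Male minus female estimates of Crhr1 kept their sign in all 16 (-0.81 to -0.40), and slope estimates of all 5 members in all 13. Others changed sign, and the cause was not tested. Once percent DIMPLE was a covariate, log2 fold changes were 0.15 for Crh and -0.03 for Crhbp. Leaving out 1 library gave -0.45 to 0.03 for Crh, above 0 without male 1, and -1.21 to 0.23 for Ucn3, above 0 without female 1. For Crhr2 it gave -0.16 to 0.28, below 0 without male 2 or male 3.

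Genes called for male minus female, 5 here, were 12 without a low-count filter, 122 with DESeq2, 27 with a replicate block, 27 when only males of the mb column prefix were set against females, and 4 to 26 when 1 library was left out, the highest without male 2. For the slope, 0 here, they were 15 without a low-count filter. Same-numbered deviations of females and males correlated at 0.307, 0.169 and 0.032 across genes, and not every library correlated best with its own number. Deviations were centred within each group, so these correlations cannot settle whether replicate numbers pair the animals. With the block the log2 fold changes were -0.32 for Crh, -0.56 for Ucn3, -0.57 for Crhr1, 0.22 for Crhr2 and 0.16 for Crhbp, and no member was called. Depth limits only Ucn.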
